A study of Mus musculus with 2 samples.

Results

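Prlr encodes the prolactin receptor, and this account describes its transcript forms in the adult mouse ovary. Its members were found by the Ensembl gene identifier ENSMUSG00000005268, version removed: 1 gene of 43346 and 12 annotated transcripts of 103639. The gene was chosen by the TPM and the share of TPM of its transcripts in these same libraries, so its levels and shares are given as a description, with no test. The gene lies on the forward strand of mouse chromosome 15, at chr15:10177238-10349180 of mm10 (GRCm38), and spans 171943 bases.

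The series measured polyadenylated RNA of whole ovary from C57BL/6J females aged 8 weeks, described as littermates, in 2 libraries of 1 untreated group, replicate 2 and replicate 1. RNA above 200 nucleotides was depleted of ribosomal RNA, and stranded libraries were read from both ends, 76 bases from each. The labels number the libraries as biological replicates and cite 1 donor record for both, so their spread may be partly technical. Replicate 2 held 34930860 gene counts and replicate 1 held 41124061. A level here mixes all cell types of the organ, so that fewer cells of a type and less RNA per cell cannot be told apart.

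The prolactin receptor is a class I cytokine receptor with no kinase of its own. On binding prolactin or placental lactogen it activates the bound kinase JAK2, which phosphorylates the receptor and the transcription factors STAT5A and STAT5B. In rodents the receptor exists as a long form and several short forms, which share the part outside the cell, the membrane span and the start of the cytoplasmic tail. The short forms lack the distal tyrosines through which the long form engages STAT5. In the rodent ovary prolactin maintains the corpus luteum and its progesterone output, and females lacking the receptor are infertile.

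The annotated forms part after exon 9. The first 280 codons, 840 coding bases, are common to the long form Prlr-202 and to the 4 short forms. After them Prlr-202 adds 328 codons of its own, 608 in all. The short form Prlr-205 adds 30 (310 in all), Prlr-212 adds 23 (303 in all), and Prlr-204 and Prlr-209 add the same 12 (292 in all). The sequences at this split are shown because they decide which receptor tail is read. All are on the forward strand of chr15 in GRCm38, from GENCODE M21. The first is the end of exon 9, with the last shared codon in capitals (chr15:10326516-10326545). The others are the start of exon 10 of Prlr-202 (chr15:10328281-10328373) and the coding end of Prlr-204 and Prlr-209 (chr15:10341774-10341812), of Prlr-212 (chr15:10345658-10345729) and of Prlr-205 (chr15:10346410-10346502), with stop codons in capitals.
Shared end of exon 9: ataaaaggatttgatactcatctgctaGAG
Long, Prlr-202: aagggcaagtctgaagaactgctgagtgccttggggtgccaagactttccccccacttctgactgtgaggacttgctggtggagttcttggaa
Short, Prlr-204 and Prlr-209: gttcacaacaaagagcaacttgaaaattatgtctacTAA
Short, Prlr-212: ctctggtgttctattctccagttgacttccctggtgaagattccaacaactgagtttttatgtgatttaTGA
Short, Prlr-205: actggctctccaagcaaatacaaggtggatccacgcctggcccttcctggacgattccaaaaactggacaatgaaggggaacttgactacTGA

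**Figure D1:**
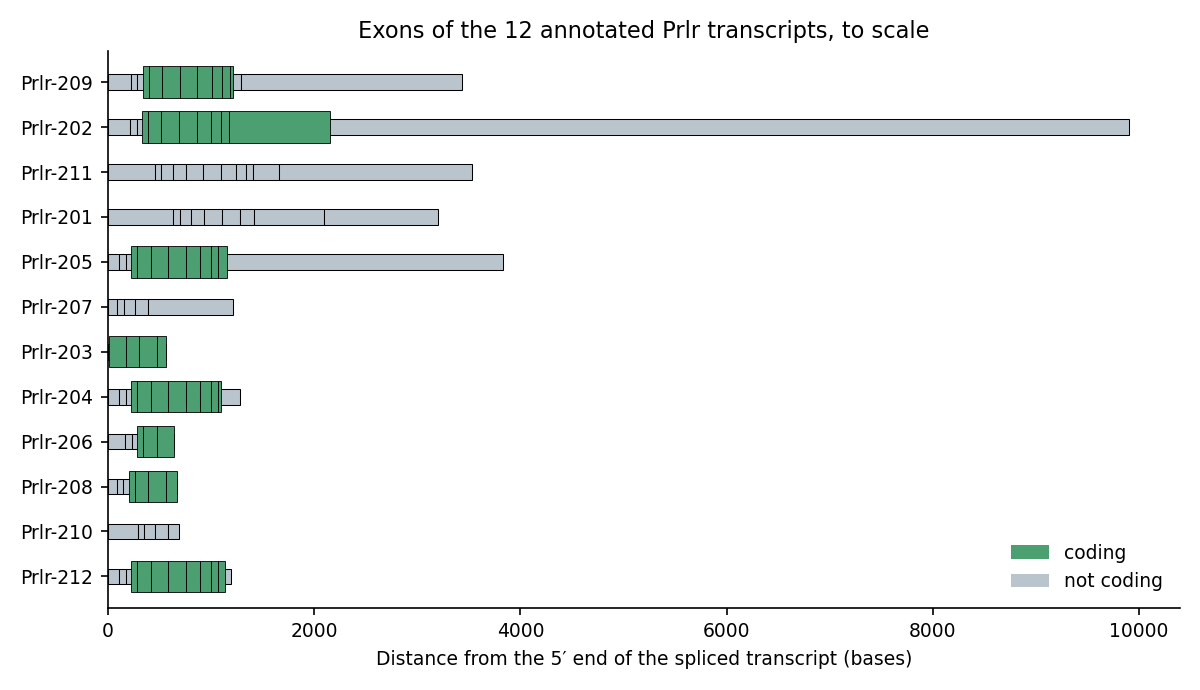
Exons of the 12 annotated Prlr transcripts drawn end to end, with distance from the spliced 5′ end in bases on the x axis, tall green boxes coding and low grey boxes not coding. Prlr-202, at 9900 bases, is the longest by far, and the coding parts of the 4 short forms end near the start of its long last coding exon.

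The remaining 7 transcripts give no complete receptor. Prlr-211 is annotated as a processed transcript with no coding sequence (CDS), and so is Prlr-210. Prlr-201 and Prlr-207 are annotated as retaining an intron, also without a CDS. Prlr-203, Prlr-206 and Prlr-208 have a CDS whose end is not annotated. Prlr-209 itself has a complete short reading frame, yet it is annotated as a target of nonsense-mediated decay, the pathway that degrades messages with an early stop, and a further exon follows the one with its stop codon. The 12 lengths in the deposited tables equal the exon sums of the annotation used here.

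Prlr had 2538 expected counts (estimated read pairs) in replicate 2 and 3743 in replicate 1. Its level was 19.8 TPM (transcript abundance corrected for length and depth) in replicate 2 and 24.4 TPM in replicate 1, a mean of 22.1 ± 3.24 TPM (SD, n = 2). Of 21474 protein-coding genes, 29.2% stood higher in replicate 2 and 26.1% in replicate 1. The summed level of all Prlr transcripts, with or without a complete CDS, was thus in the upper part of the range in both libraries.

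The log2 ratio of Prlr counts, replicate 2 over replicate 1, was -0.26 after TMM scaling, with a 95% interval of -0.33 to -0.19 that covers counting error only. Over 15939 genes the median ratio was -0.01 and the median size 0.23, and 45.3% of genes differed by more than Prlr. With 1 library on each side no test across samples could be made. Prlr was not past 2-fold, as 3.99% of genes were (2.28% higher and 1.71% lower in replicate 2).

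By TPM, 4 transcripts carried nearly all of the gene's level, 97.6% in replicate 2 and 96.1% in replicate 1. By posterior mean TPM, the authors' other estimate, they carried less. There the 3 transcripts with an incomplete CDS, none of them among these 4, held 3.78% in replicate 2 and 8.43% in replicate 1. The long receptor, Prlr-202, stood at 6.22 TPM in replicate 2 and 7.67 TPM in replicate 1. Its share of the gene's TPM was 31.45% in replicate 2 and 31.47% in replicate 1, a difference of 0.02 points. Being the longest transcript it took more of the reads than of the TPM: 1482 of the expected counts in replicate 2 and 2191 in replicate 1, which is 58.4% and 58.5% of the gene's.

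The short form that was quantified highest was the decay-annotated Prlr-209. It stood at 5.27 TPM in replicate 2 and 9.37 TPM in replicate 1, from 418 and 888 expected counts. The authors' credible interval of its posterior TPM, whose level the files do not state, was 3.89 to 6.34 in replicate 2 and 7.82 to 10.3 in replicate 1. The intervals do not overlap, and its share was 26.6% in replicate 2 and 38.5% in replicate 1.

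Prlr-211, which shares its 3′ exons with Prlr-209 in large part and has no annotated CDS, differed the other way. It stood at 6.49 TPM in replicate 2 and 3.42 TPM in replicate 1, from 531 and 334 expected counts. Its credible intervals, 5.25 to 7.48 in replicate 2 and 2.43 to 4.37 in replicate 1, do not overlap either. Summed, Prlr-209 and Prlr-211 held 11.8 TPM in replicate 2 and 12.8 TPM in replicate 1, or 59.5% and 52.5% of the gene, so their sum differed less than each alone.

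Prlr-201, the largest of the transcripts with a retained intron, stood at 1.33 TPM in replicate 2 and 2.96 TPM in replicate 1, with intervals of 0.87 to 1.93 and 2.13 to 3.66. These, too, were apart, and with Prlr-202 (5.76 to 6.45 in replicate 2 and 7.14 to 7.90 in replicate 1) they make 4 transcripts of 12 whose intervals do not overlap. Intervals were apart for 11.6% of all 103639 transcripts and for 35.8% of the 30515 with a mean of at least 1 TPM, which among those of Prlr are the same 4. Of the 3 short forms annotated as plain protein-coding, Prlr-205 was listed at 0 TPM in replicate 2 and 0.59 TPM in replicate 1. Prlr-204 and Prlr-212 were listed at 0 in both libraries, as were Prlr-206, Prlr-208 and Prlr-210. An estimate of 0 from a quantifier that divides shared reads does not exclude a message: the upper credible bounds of Prlr-206 were 0.64 TPM in replicate 2 and 2.98 TPM in replicate 1. Prlr-207 stood at 0.27 TPM in replicate 2 and 0.19 TPM in replicate 1, and Prlr-203 at 0.20 TPM and 0.17 TPM.

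**Figure D2:**
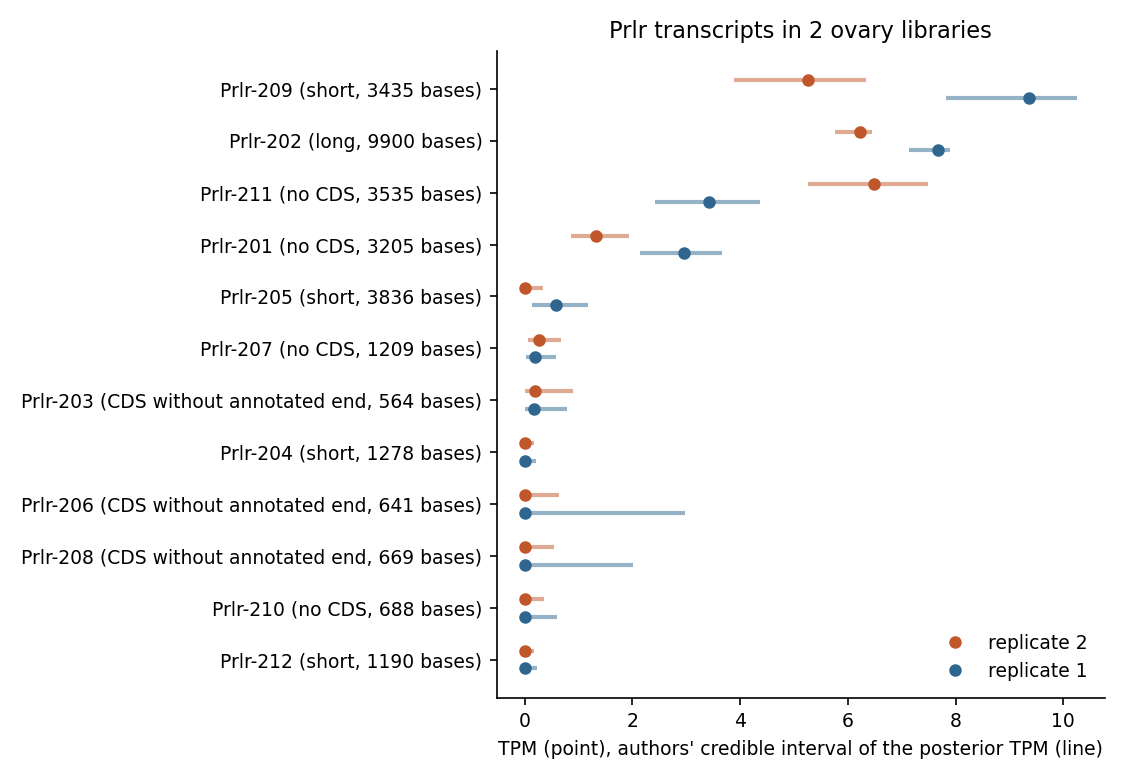
TPM of each Prlr transcript (points) with the authors' credible interval of the posterior TPM (lines), replicate 2 in orange above replicate 1 in blue. Prlr-209 stands at 5.27 TPM in replicate 2 and 9.37 in replicate 1, Prlr-211 at 6.49 in replicate 2 and 3.42 in replicate 1, and the 8 transcripts below Prlr-201 lie under 1 TPM.

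By class, the long form held 31.4% of the TPM in replicate 2 and 31.5% in replicate 1. The 4 short forms together held 26.6% in replicate 2 and 40.9% in replicate 1. The 4 transcripts without a CDS held 40.9% in replicate 2 and 27.0% in replicate 1, and the 3 with an incomplete one 1.01% and 0.70%. By TPM the long class thus kept its share while the short and noncoding classes traded places. By posterior mean TPM the long class held 29.9% in replicate 2 and 28.5% in replicate 1. Without Prlr-209, the short class averaged 1.97% of the remaining TPM (n = 2), against 33.8% with it. That remainder came from replicate 1 alone, where Prlr-205 stood at 0.59 TPM, since in replicate 2 it was listed at 0.

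The transcript with the highest TPM was Prlr-211 in replicate 2 and Prlr-209 in replicate 1. In each library its credible interval overlapped that of Prlr-202, so which one led is not settled. By expected counts Prlr-202 led in both libraries. Among 9449 genes that have 2 or more transcripts and average 100 counts or more, 14.2% had a different leading transcript in each library. The share of Prlr-209, the largest by its mean, was 11.8 points lower in replicate 2, and the share of the largest transcript changed by 10 points or more in 31.4% of genes. Its largest change of any share was 18.8 points, for Prlr-211, and 18.0% of genes had a larger one. In 40.3% of genes some transcript changed by 10 points or more. Prlr has many annotated transcripts, and among the 840 genes with 12 or more, 55.2% had such a change and 21.9% a larger maximum than Prlr. Its shift of shares was therefore within what these libraries show for many genes.

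**Figure D3:**
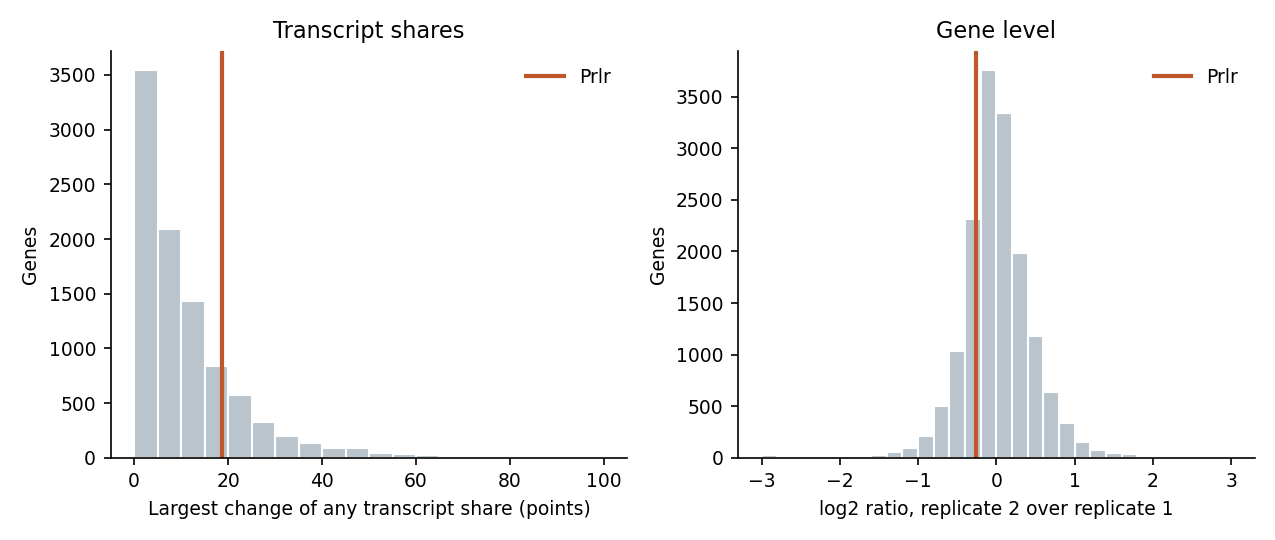
Left, number of genes by the largest change of any transcript share between the libraries, in percentage points; right, number of genes by log2 ratio of replicate 2 over replicate 1, with ratios beyond 3 in the outermost bars. The orange line marks Prlr, at 18.8 points and at -0.26.

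The 2 transcripts quantified highest beside the long form have most of their bases outside it. Of the 3435 bases of Prlr-209, 1171 (34.1%) lie in exons of Prlr-202, and of the 3535 of Prlr-211, 1166 (33.0%). The rest is largely a last exon of 2147 bases in Prlr-209 and 1877 in Prlr-211, which overlaps the last exon of Prlr-205. Prlr-211 also starts exon 4 later than Prlr-202, leaving out its first 5 bases. They stand in capitals here, at chr15:10317503-10317532 of GRCm38.
Start of exon 4 in Prlr-202: GACAGtcaccacctggaaaacctgaaatcc

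Reads that cross a splice junction show which exons were joined. The authors' deposited junction table pools the series on the older build mm9. The 9 introns of Prlr-202 were found there by their run of lengths, which occurred at 1 place among 438382 junctions. Introns 1 to 9, in order, had 218, 344, 177, 83, 8, 6, 26, 114 and 54 reads. Reads were most frequent at the 5′ end, and introns 5 and 6, within the part shared by all complete forms, had the fewest.

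At the split after exon 9, 54 reads joined the long exon 10, 1 read joined the last exon of Prlr-205, and 2 reads joined an exon of Gm21973, an overlapping gene model on the same strand that shares exons with Prlr. Of the 55 listed reads within Prlr 98.2% joined the long exon (95% exact binomial interval 90.3% to 99.95%, counting error only). Of all 57 listed reads 94.7% did (85.4% to 98.9%). Both Prlr-202 and Prlr-201, which has no CDS, use that junction, so these reads do not tell the 2 apart. No junction was listed from exon 9 to the next exon of Prlr-204, Prlr-209 and Prlr-211, nor to that of Prlr-212. No source used here gives the table's rule for listing a junction, so an unlisted junction is not a count of 0. Both intervals hold for the listed reads alone and do not cover reads left out of the list.

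The TPM of the transcripts gave another division. Those that splice exon 9 to the long exon, Prlr-202 and Prlr-201, held 39.1% of the TPM of the 7 transcripts using that splice donor in replicate 2 and 44.3% in replicate 1. The junctions that belong to Prlr-209 or Prlr-211 and not to Prlr-202 were absent from the list: the intron of 15228 bases that both use, one of 4528 bases in Prlr-209, and in Prlr-211 one of 4385 bases and the intron of 3234 bases before its shifted exon 4. In Prlr-209, 8 of 10 introns were listed, in Prlr-211 7 of 10, in Prlr-202 9 of 9 and in Prlr-201 8 of 8. The place was recognised by a run of at least 3 introns of Prlr-202, so its count is partly fixed by the search. All introns of Prlr-201 are also introns of Prlr-202, so its count follows from that of Prlr-202. The junction table and the transcript tables come from different builds and processing, and the part this plays was not tested.

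**Figure D4:**
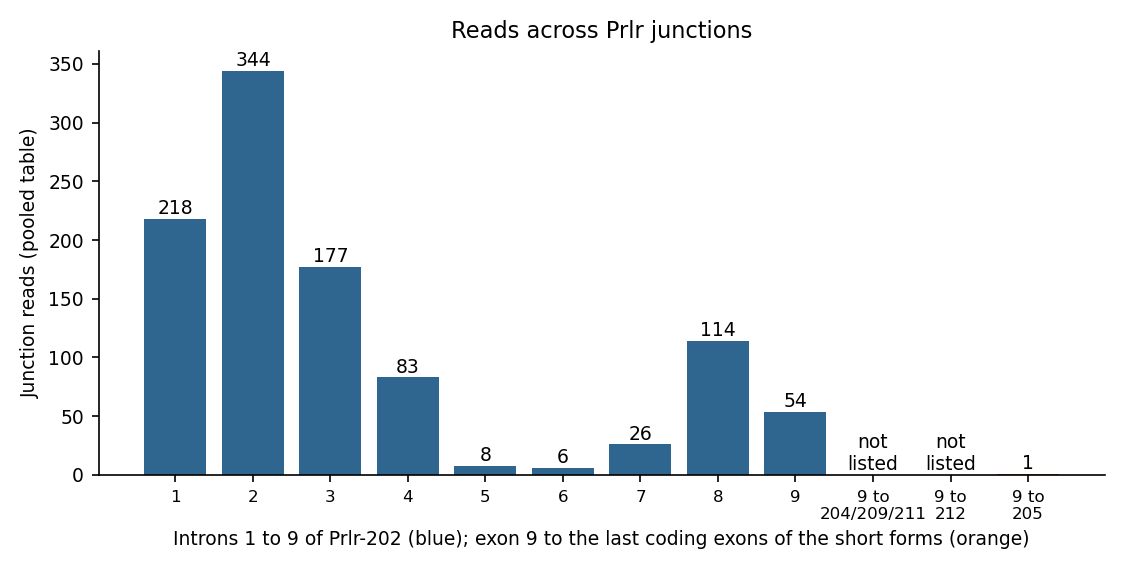
Reads per Prlr junction in the pooled table on the y axis, for introns 1 to 9 of Prlr-202 (blue) and for the splices from exon 9 to the last coding exons of the short forms (orange). Intron 9 into the long exon had 54 reads, the splice to Prlr-205 had 1, and the other splices were not listed.

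Coverage was taken from the authors' contig table, also pooled and on mm9, in which a contig is a stretch covered by reads and has 1 level for its whole length, in a unit the files do not state. The level over exons 1 to 9 was 4.13, 22.4, 37.3, 15.2, 2.30, 0.40, 4.69, 2.57 and 0.87. Exon 3 was highest and exon 6, which lies between introns 5 and 6, was lowest. Exon 9 was also low, although the introns on its sides had 114 and 54 junction reads. The coding part of exon 10 had a level of 9.18, and the 7742 bases after its stop codon, 87.6% of them covered, averaged 2.92.

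The last exon of Prlr-209, 2147 bases, averaged 5.81, with 64.1% of its bases covered. A single contig of 1441 bases and level 12.4 covered its first 989 bases and began 452 bases upstream of it, in what the annotation gives as an intron of all forms that use this exon. Coverage thus ran across the splice acceptor without a break, at a place where 1 junction read was listed. Whether the reads there come from spliced Prlr messages was not tested.

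**Figure D5:**
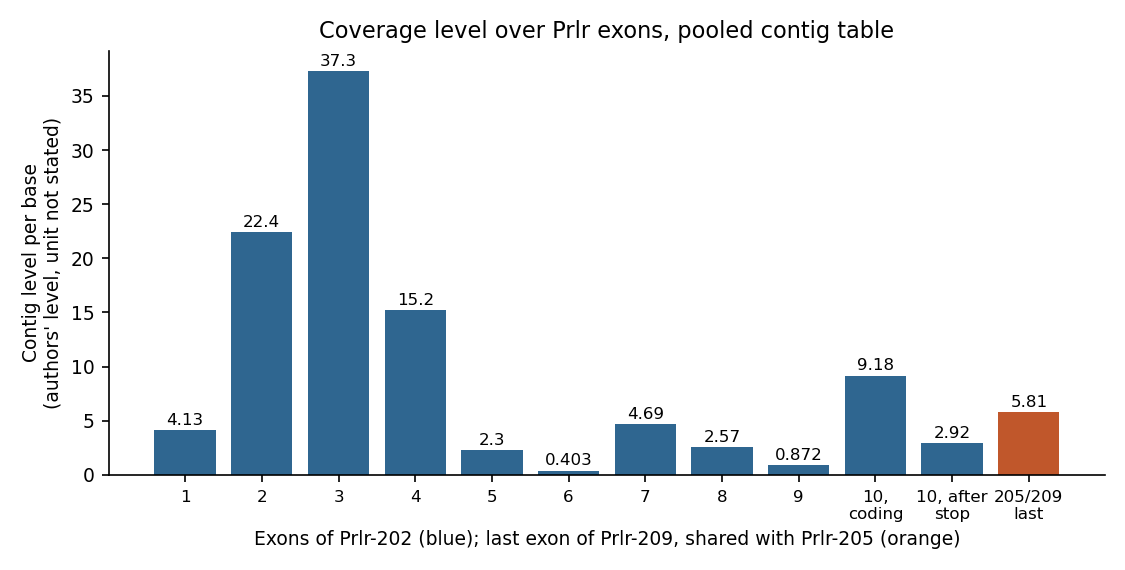
Mean contig level per base, in the authors' unit, for exons 1 to 9 of Prlr-202 and both parts of its exon 10 (blue) and for the last exon of Prlr-209, shared with Prlr-205 (orange). Exon 3 has the highest level, 37.3, exon 6 the lowest, 0.40, and the last exon of Prlr-209 stands at 5.81.

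At the 5′ end, 5 transcripts (Prlr-201, Prlr-202, Prlr-207, Prlr-209 and Prlr-211) share the first exon region and splice through intron 1, with its 218 reads. The first exon of Prlr-210 was joined to exon 2 by 1 read. The first exons of Prlr-206, of Prlr-208, and of Prlr-204, Prlr-205 and Prlr-212, which have one in common, had no listed junction to exon 2. A further 12 junctions without annotation shared a splice site with the long form and had 31 reads in all, at most 7 each. The largest, with 7, used a donor 37 bases before that of intron 2.

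RefSeq's promoter table (GRCm38.p6) lists 3 starts for Prlr. The first, whose start site is the 5′ end of Prlr-201, belongs to the first exon region with junction reads, and the second lies just upstream of the first exon of Prlr-204, Prlr-205 and Prlr-212. Both are printed because they lie at first exons that differed in listed junction reads, 250 bases before to 50 after the start, on the forward strand, at chr15:10176988-10177287 and chr15:10223656-10223955. Capitals mark matches, on either strand, to CCAAT or TTCNNNGAA, a motif that STAT5 is known to bind.
First Prlr promoter: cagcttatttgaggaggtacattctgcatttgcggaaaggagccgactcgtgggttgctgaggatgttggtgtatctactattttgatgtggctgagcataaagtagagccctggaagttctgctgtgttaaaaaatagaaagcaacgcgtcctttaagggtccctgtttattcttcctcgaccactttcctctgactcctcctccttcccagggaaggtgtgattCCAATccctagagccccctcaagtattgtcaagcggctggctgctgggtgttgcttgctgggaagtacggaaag
Second Prlr promoter: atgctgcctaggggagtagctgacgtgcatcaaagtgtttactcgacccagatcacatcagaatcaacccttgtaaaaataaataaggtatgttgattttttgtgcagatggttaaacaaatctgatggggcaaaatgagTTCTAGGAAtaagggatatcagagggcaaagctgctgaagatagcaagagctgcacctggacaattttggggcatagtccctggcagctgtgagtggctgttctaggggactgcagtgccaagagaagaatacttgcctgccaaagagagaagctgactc
CCAAT was found in the first and in 37.4% of the 32851 mouse promoters in the table, and TTCNNNGAA in the second and in 8.30%. Neither TATAAA (13.6% of promoters) nor AAGGTCA (4.72%) was found in any of the 3. The motifs do not overlap one another. Such matches are a description of letters, not of binding. GC content was 49.3% in the first and 45.7% in the second.

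Gm21973 lies at chr15:10325380-10373749 of mm10. Its exons in common with Prlr make the split of reads between the genes uncertain. It had 0 expected counts in both libraries, beside the 2 reads that joined exon 9 of Prlr to an exon of it.

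Messages of the prolactin and growth hormone family, to which the ligand prolactin belongs, were near or at 0. Of the 24 family genes listed, not all of them ligands of this receptor, none reached 1 TPM in both libraries. Counts were 0 in both for 23 of them, Prl, pituitary prolactin, among them. Gh, growth hormone, had 2 counts in replicate 2 and 0 in replicate 1. Across all 43346 genes 32.8% reached 1 TPM in both libraries, and of protein-coding genes 62.0% did.

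Among class I cytokine receptors, 23 of 31 besides Prlr reached 1 TPM in both libraries, set against 62.0% of protein-coding genes. The median of the 31 was 5.49 TPM. Prlr was 8th of the 32 by mean level. Ghr, the growth hormone receptor and its closest relative, was just above at 25.9 TPM in replicate 2 and 22.1 TPM in replicate 1. Cntfr, the ciliary neurotrophic factor receptor, was just below at 20.2 TPM and 23.6 TPM. The values of all 3 overlap, so their order is not fixed. The highest were Il11ra1, the interleukin 11 receptor, with 244 TPM in replicate 2 and 150 TPM in replicate 1, and Csf2ra, a GM-CSF receptor chain, with 141 and 108 TPM. Crlf2 (91.2 and 52.5 TPM) and Il4ra (58.1 and 44.4 TPM) followed. Lepr, the leptin receptor, stood at 2.25 TPM in replicate 2 and 2.57 TPM in replicate 1. The median log2 ratio of the 26 receptors with a ratio was 0.05.

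Most messages of the signalling chain below the receptor were detected in the whole organ. Of 19 transducers 18 reached 1 TPM in both libraries, set against 62.0% of protein-coding genes. None of the 19 was past 2-fold, and 3.99% of all genes tested were, so few would be looked for among 19. Their median log2 ratio was -0.04. Jak2, the receptor's kinase, stood at 8.58 TPM in replicate 2 and 6.23 TPM in replicate 1. Stat5a stood at 61.9 TPM in replicate 2 and 69.0 TPM in replicate 1, and Stat5b at 55.5 and 57.5 TPM. The 4 highest were Ppia, cyclophilin A, a prolyl isomerase reported to bind the human receptor (313 and 613 TPM), Shc1, an adaptor (111 and 124 TPM), Stat3 (116 and 111 TPM) and the kinase Src (80.0 and 69.0 TPM).

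All 16 negative regulators were detected, set against 62.0% of protein-coding genes, and their median log2 ratio was 0.22. Socs2, which dampens growth hormone and prolactin signalling, was highest at 357 TPM in replicate 2 and 232 TPM in replicate 1. Socs1, an inhibitor of JAK kinases, was the 1 member past 2-fold, at 112 and 45.3 TPM (log2 ratio 1.37), and 3.99% of all genes tested were. Cish, a STAT5-induced feedback inhibitor, stood at 35.8 and 34.3 TPM. Ptpn1, a phosphatase, stood at 80.2 and 68.1 TPM, and Fbxw11, of the ligase that recognises the phosphorylated receptor, at 50.6 and 57.9 TPM.

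Of 16 ovarian genes reported to respond to prolactin, 15 were detected, set against 62.0% of protein-coding genes. Their median log2 ratio was 0.01. Hsd17b7 is an enzyme first described in the rat corpus luteum as a protein associated with the short receptor. It stood at 41.4 TPM in replicate 2 and 22.2 TPM in replicate 1. In TMM-scaled counts it was the 1 member past 2-fold (log2 ratio 1.08), and 3.99% of all genes tested were. Its TPM values differed by less than 2-fold. Akr1c18, which inactivates progesterone and is repressed by prolactin in rodents, stood at 44.5 and 34.3 TPM. Lhcgr, the luteinizing hormone receptor, stood at 150 and 91.2 TPM (log2 ratio 0.77). The 3 most abundant of the list were Cyp11a1, Hsd3b1 and Scarb1. Cyp11a1, which cleaves the cholesterol side chain, had 1325 TPM in replicate 2 and 1342 TPM in replicate 1, Hsd3b1 had 1305 and 1689 TPM, and the lipoprotein receptor Scarb1 had 837 and 1133 TPM.

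All 6 granulosa, 6 theca and interstitial, 6 luteal and 6 oocyte markers reached 1 TPM in both libraries, set against 62.0% of protein-coding genes. So did all 6 adipocyte, 6 surface epithelium and 5 oviduct markers, among them Cfd of fat (2772 TPM in replicate 2 and 2081 TPM in replicate 1) and Ovgp1 of the oviduct (528 and 627 TPM). The luteal list had a median log2 ratio of 0.58, with Hsd17b7 past 2-fold and Parm1 at -0.47. It summed to 1609 TPM in replicate 2 and 1527 TPM in replicate 1. Its members Lhcgr and Cyp11a1 are also on the theca and interstitial list. The median was 0.48 for surface epithelium, 0.17 for adipocyte, 0.05 for oviduct and 0.02 for granulosa markers. It was -0.21 for theca and interstitial and -0.21 for oocyte markers. Of 8 markers of liver, mammary gland and pituitary, 2 were detected in both libraries, Apoa1 (43.2 and 61.4 TPM) and Alb (6.62 TPM in replicate 2 and 23.4 TPM in replicate 1), and Csn2, Wap and Prl had 0 counts. That list summed to 51.5 TPM in replicate 2 and 85.8 TPM in replicate 1. The part of these tissues and differences in the Prlr values was not tested.

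The protein-coding genes nearest to Prlr in level over the 2 libraries, by distance in log2(TPM + 1), were Slc25a17, a peroxisomal carrier (19.8 TPM in replicate 2 and 24.1 TPM in replicate 1), Spen, a transcriptional corepressor (20.1 and 24.2 TPM), and Pax8, a transcription factor (19.6 and 24.7 TPM). With 2 libraries such likeness says only that the levels were close.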

How the data were processed

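Genes and transcripts were quantified per library on mm10 with GENCODE M4, per the file headers and the samples' notes. The sources used here give neither aligner nor quantifier. Per library, the authors deposited expected counts (estimated read pairs), TPM and FPKM (both divided by effective length), the bounds of a credible interval of the TPM as a signal value, and the percent of the gene's TPM held by each transcript. Both mm9 tables pool the series: the authors deposited junctions with a read count and a score, and contigs with a signal level. The score was not used in any result.

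Names and structures came from GENCODE M21, of the same build as the gene tables, and 42462 of 43346 identifiers matched. Spike-ins (96 rows, 0.986% of counts in replicate 2 and 0.764% in replicate 1) and 26249 rows without a mouse gene identifier were left out. Counts were rounded, genes averaging 20 counts or more kept, and log2 ratios computed with TMM factors of edgeR 4.0.16 (R 4.3.3) and a prior count of 1. DESeq2 1.42.0 gave alternative size factors. A single group of 2 libraries allows no test between groups, so none was run and a gene was called where it passed 2-fold. Intervals of ratios and shares are exact binomial (Clopper-Pearson) at 95% and cover counting error only. They leave out variation between libraries and the uncertainty in dividing shared reads. Reads carry no molecular identifiers, so the counting error itself may be understated. The calculation was tested on simulated data.

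Transcripts were classed as long, short, without a CDS or, a class added after the annotation was read, with a CDS lacking an annotated end. Prlr introns were recognised in the junction table by a run of intron and exon lengths, and contigs were placed from those junctions. No coordinate was converted between builds.

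Named were Prlr and its transcripts, the 4 members of each of 5 pathway lists with the highest mean TPM, Jak2, Stat5a, Stat5b, Socs2, Cish, Ghr, Lepr, Prl, Gh, Hsd17b7, Akr1c18 and Lhcgr, list members past 2-fold, and the 3 protein-coding genes nearest in level. An item that this rule names is not reported here. In the prolactin and growth hormone list ties at 0 left only Gh and Prl to name. Cntfr, Parm1, Alb, Apoa1, Cfd, Ovgp1, Csn2, Wap and Gm21973 were named after their values were seen. The members and lists were chosen with earlier results of these data known. Alternatives covered the unit, the scaling, the filter, the prior count, the class of transcripts and each library left out. Python 3.11.15, numpy 2.4.6, pandas 2.3.3, scipy 1.17.1 and matplotlib 3.10.9 were used.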

Additional observations from a re-analysis of the deposited data

How the results depend on the processing

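Of 47 alternatives that kept both libraries, 27 left the value within its spread, its interval or 1.5 times its count, and none of them reversed a direction. No paired analysis was possible because each replicate number holds 1 library. Leaving out either library, which with n = 2 cannot pass 1 SD from the mean, gave a Prlr level of 19.8 to 24.4 TPM, a long share of 31.4% to 31.5%, a short share of 26.6% to 40.9% and a noncoding share of 27.0% to 40.9%. The mean level was 15.6 as FPKM.

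The class shares moved with the unit and with which transcripts were counted. The long form held 31.5% of the TPM on average, 29.2% of the posterior mean TPM, 58.5% of expected counts, 48.1% among transcripts with a CDS and 47.0% without Prlr-209, the last chosen after seeing the data. The short class held 33.8% of the TPM, 20.9% of expected counts, 50.5% among transcripts with a CDS and 1.97% without Prlr-209. The noncoding class held 33.9%, 20.5% of expected counts and 49.8% without Prlr-209. The 11.8-point difference of the largest share became -9.37 points (replicate 2 minus replicate 1) from posterior mean TPM. With expected counts Prlr-202 became the largest, at -0.15 points.

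Scaling by the spike-in total gave a Prlr log2 ratio of -0.70, with the median of all genes at -0.44. Under it Socs1 and Hsd17b7 were no longer past 2-fold, leaving 0 negative regulators and 0 target genes. Ppia, 1 transducer, was lower in replicate 2 by 1.21 on the log2 scale (-1.21), and Il31ra, a receptor, stood at -1.16. This scaling moved the median of all genes from -0.01 to -0.44. The share of all genes past 2-fold under it is not given here, so these calls are not read as particular to the members. Without the count filter 1 gene of the prolactin and growth hormone family, Gh, passed 2-fold on 2 counts in replicate 2 and 0 in replicate 1. By posterior mean TPM 1 gene of that family, Prl7d1, was listed at 3.11 in replicate 2 and 12.5 in replicate 1 with 0 counts in both. With the junction to Gm21973, added after seeing the data, 94.7% of listed reads at the split joined the long exon. At the split only the junction to the long exon had at least 10 reads. The 100% obtained under that minimum was therefore fixed by the filter. Over covered bases alone, an alternative also chosen after seeing the data, the last exon of Prlr-209 had a level of 9.05. The cause of these changes was not tested.

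The split rests on 55 reads, and introns 5 and 6 rest on 8 and 6 reads.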
